A study of Mus musculus with 6 samples.

Results

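The entry of pyruvate into mitochondria and its oxidation in the citric acid cycle were followed at the RNA level in the inguinal subcutaneous white adipose tissue (SC-WAT) of mice with and without Egr1, a gene encoding a zinc finger transcription factor. A fixed list of 33 genes was looked up by symbol among the 47069 gene identifiers of each count table, and all 33 were found. They comprise 14 mitochondrial cycle enzymes, 3 cytosolic counterparts of cycle enzymes, 2 subunits of the pyruvate carrier, 4 subunits of the pyruvate dehydrogenase (PDH) complex, 4 PDH kinases, 3 genes of the PDH phosphatases, and 3 anaplerotic and malic enzymes. Succinate dehydrogenase, which also belongs to the cycle, was not on this list and is counted with the related genes.

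RNA was taken from the inguinal fat pads of 3 female Egr1+/+ and 3 female Egr1-/- mice, all 2 weeks old and of the C57BL/6 strain (substrain J in the methods of the study), with 1 library per mouse. The Egr1-/- line carries a LacZ insertion and a frameshift in Egr1 in the germline, so every cell of the body lacks the factor, not only adipocytes. No treatment was given, and the comparison asks which genes of these routes differ when Egr1 is absent. Libraries were depleted of ribosomal RNA and made from whole tissue. In such bulk samples, a gain in cells of a type and a gain in RNA per cell cannot be told apart.

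Pyruvate made from glucose enters the mitochondrial matrix through the carrier encoded by Mpc1 and Mpc2. The PDH complex turns it into acetyl-CoA, the PDH kinases switch that complex off by phosphorylation, and the PDH phosphatases switch it on again. Citrate synthase joins acetyl-CoA to oxaloacetate, and the following steps of the cycle release CO2 and hand electrons to the respiratory chain. In brown and beige adipocytes, the chain works partly uncoupled from ATP synthesis through UCP1, and a high capacity of the cycle is a known feature of these cells.

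The libraries held 29661984 to 42357981 gene counts, with 49.97% to 66.26% of them on the mitochondrial genome and 12572968 to 18449896 on other genes. Levels are given in CPM, the counts of a gene scaled to a common library size with TMM factors. Each of 17667 genes was tested for a difference between genotypes by the quasi-likelihood test of edgeR, with Benjamini-Hochberg adjustment over all of them and a threshold of 0.05, and each log2 fold change is given with its standard error (SE). Each p-value sets the difference between genotypes against the spread between these mice, which edgeR estimates with information shared across genes. Egr1 itself ran from 8.024 to 16.49 CPM in Egr1+/+ mice and from 1.843 to 3.092 CPM in Egr1-/- mice. Its log2 fold change was -2.19 (SE 0.299), with an adjusted p of 0.0878 in edgeR and 1.49e-10 in DESeq2. The inactivated gene thus did not pass the edgeR threshold, so a failure to pass it does not show that a gene is unchanged. All 12 adipocyte markers examined were detected, and their summed level was 9086 to 9985 CPM in Egr1+/+ mice and 7677 to 8699 CPM in Egr1-/- mice. The summed skeletal muscle markers set a mouse of each genotype apart. They came to 3783 CPM in Egr1+/+ mouse 2 and 3046 CPM in Egr1-/- mouse 3, against 140.9 to 1241 CPM in the others.

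Most of the mitochondrial cycle enzymes had higher RNA levels in Egr1-/- SC-WAT, and in 10 of the 13 that could be tested every Egr1-/- mouse lay above every Egr1+/+ mouse, as in 8.15% of all tested genes. The steps with the largest difference were those of citrate synthase, NAD-dependent isocitrate dehydrogenase, oxoglutarate dehydrogenase, ADP-forming succinyl-CoA ligase and mitochondrial malate dehydrogenase. The carrier, the cytosolic enzymes and the PDH kinases Pdk1 and Pdk3 differed less. Of the counts outside the mitochondrial genome, the members together took 0.910% to 1.032% in Egr1+/+ mice and 1.182% to 1.610% in Egr1-/- mice. On that base the genotypes did not overlap. When the mitochondrial genome was counted too, the shares overlapped, with 0.388% to 0.4769% for Egr1+/+ against 0.4371% to 0.7257% for Egr1-/-. There Egr1-/- mouse 1, at 0.4371%, lay below Egr1+/+ mouse 1 (0.4602%) and Egr1+/+ mouse 3 (0.4769%).

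No member passed the adjusted threshold in edgeR, where 0.0170% of all tested genes did (3 of 17667). The adjusted p-values of the 32 tested members in edgeR ran from 0.22 to 0.964. At an unadjusted p under 0.05 in the same test, 17 of the 32 were higher and 0 lower in Egr1-/- mice, whereas 5.06% of all tested genes were higher and 5.60% lower. With total-count scaling, 6 members had such a p, against 8.89% of all tested genes. In 16 of the 32, the genotypes did not overlap and Egr1-/- mice were higher, a pattern that 8.15% of all tested genes had. The opposite pattern was found in 0 members and in 8.10% of all tested genes. The log2 fold change was positive in 29 of the 32 members and in 50.1% of all tested genes, with medians of 0.40 and 0.001. In DESeq2, 10 members passed at an adjusted p under 0.05, all of them higher in Egr1-/- mice. Of all genes DESeq2 tested, 2.62% passed, 1.02% as higher and 1.60% as lower in Egr1-/- mice. The 10 were Ogdh, Cs, Sucla2, Idh3a, Mdh2, Suclg1, Idh3g, Dlst, Dlat and Pdp2. Without a filter on low counts, edgeR gave the same 10, where 1.44% of all genes passed, and limma-voom gave 0 members and 0.00566% of all genes. Ogdh and Sucla2 are genes the study itself picked out on these libraries, so they are not an independent choice. The study also named the tricarboxylic acid cycle among the most enriched terms of its upregulated genes. The cycle as a whole is thus not an independent choice either. For Ogdh and Sucla2, the study also reported higher levels in Egr1-/- SC-WAT by quantitative PCR, and lower levels in cultured cells overexpressing Egr1.

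**Figure D1:**
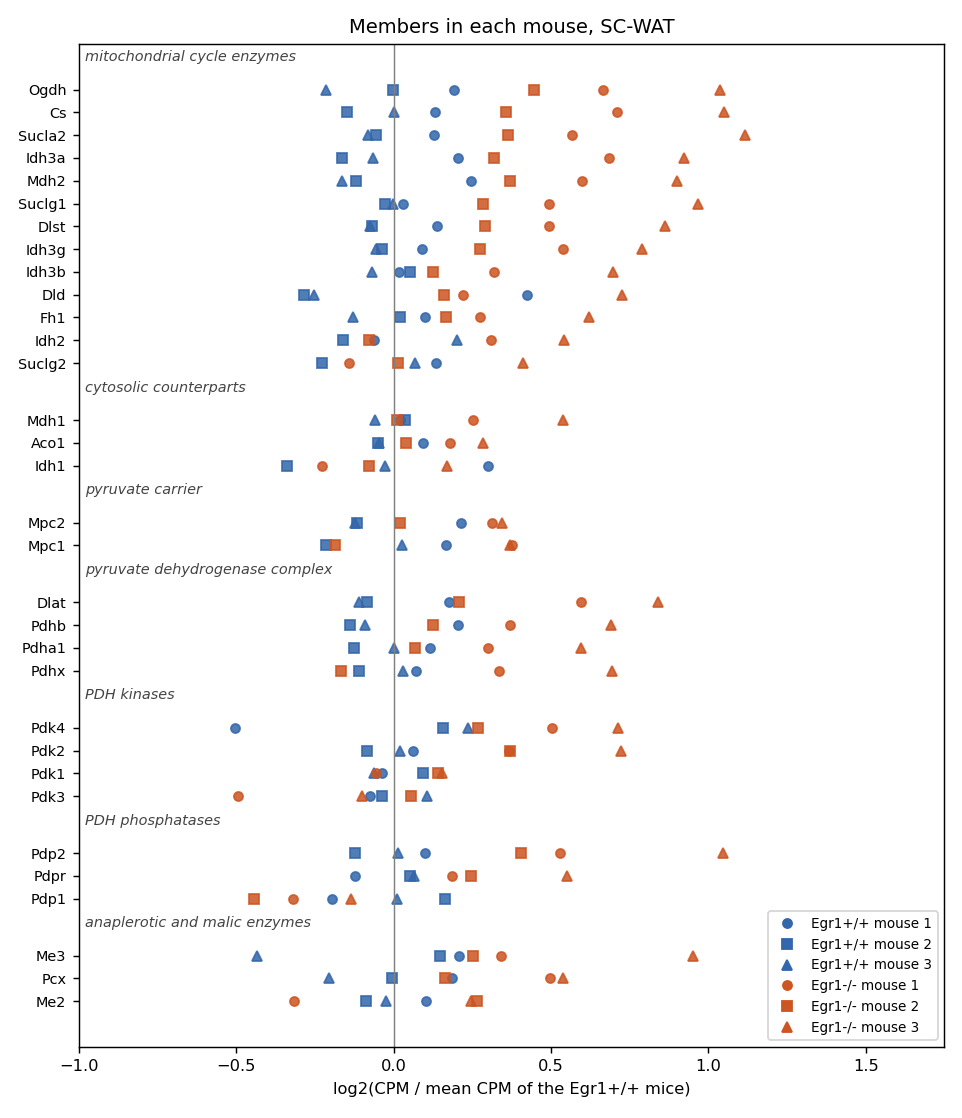
Level of each tested member in each mouse, as log2 of its CPM over the mean CPM of the Egr1+/+ mice, with members grouped by role and sorted by fold change. Blue symbols are the 3 Egr1+/+ mice and orange symbols the 3 Egr1-/- mice. For 16 of the 32 members all orange symbols lie to the right of all blue ones (8.15% of all tested genes). Egr1-/- mouse 3, the one of its genotype with high muscle markers, is the highest of the 6 mice for 27 (17.7% of all tested genes).

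Cs (ENSMUSG00000005683.7, GRCm38 chromosome 10, 128337734 to 128362479) encodes citrate synthase, which opens the cycle. It was measured at 322.6, 265.6 and 294.7 CPM in the Egr1+/+ mice and at 481, 377.2 and 609.2 CPM in the Egr1-/- mice. The lowest Egr1-/- mouse lay above the highest Egr1+/+ mouse, and Egr1-/- mouse 3 stood highest. The means were 294 ± 28.5 and 489 ± 116 CPM (SD, n = 3 each), a log2 fold change of 0.73 (SE 0.183) and an edgeR adjusted p of 0.227.

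NAD-dependent isocitrate dehydrogenase, a rate-controlling enzyme of the cycle, is built from the products of Idh3a, Idh3b and Idh3g. Idh3a (chromosome 9, 54586334 to 54604661), its catalytic subunit, had 207.6, 160.9 and 172.1 CPM in Egr1+/+ mice and 289.7, 224.8 and 341.5 CPM in Egr1-/- mice. Its log2 fold change was 0.66 (SE 0.175, edgeR adjusted p = 0.235). Idh3g, a regulatory subunit, had 117, 107.1 and 105.7 CPM in Egr1+/+ mice and 159.6, 132.8 and 189.8 CPM in Egr1-/- mice, with a log2 fold change of 0.55 (SE 0.147). For Idh3b the log2 fold change was 0.40 (SE 0.157). All 3 subunits were separated by genotype. Idh3b shares exonic sequence with Nop56 on the opposite strand, whose counts came to 10.82% of those of Idh3b, and the strand setting of the counting is not given in the sources used here. The NADP-dependent mitochondrial enzyme Idh2 had 97.56, 91.26 and 117.1 CPM in Egr1+/+ mice and 126.3, 96.52 and 148.3 CPM in Egr1-/- mice. These ranges overlapped, and the log2 fold change of Idh2 was 0.28 (SE 0.173).

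Oxoglutarate dehydrogenase turns oxoglutarate into succinyl-CoA and is assembled from Ogdh, Dlst and Dld. Ogdh (chromosome 11, 6291633 to 6356642) encodes the thiamine-dependent first component and had the lowest p of all members. Its levels were 252.2, 220.7 and 190.4 CPM in Egr1+/+ mice and 350.6, 301.5 and 453.4 CPM in Egr1-/- mice. The log2 fold change was 0.74 (SE 0.178, edgeR adjusted p = 0.22). Dlst, the succinyltransferase core, ran from 231 to 267.5 CPM and from 297.7 to 442.7 CPM, a log2 fold change of 0.57 (SE 0.165). Dld encodes the dehydrogenase that this complex shares with the PDH complex. It ran from 168.4 to 274.7 CPM in Egr1+/+ mice and from 229.3 to 339.2 CPM in Egr1-/- mice, so the genotypes overlapped. The log2 fold change of Dld was 0.39 (SE 0.226). The paralog Ogdhl, known mainly from brain and liver, had 3 to 7 counts per mouse and was too low to be tested.

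Succinyl-CoA ligase forms succinate and a nucleoside triphosphate. Its alpha subunit is encoded by Suclg1, and the beta subunit by Sucla2 in the ADP-forming enzyme or by Suclg2 in the GDP-forming one. Sucla2 (chromosome 14, 73525319 to 73596142) had 441.3, 388 and 381.3 CPM in Egr1+/+ mice and 597.2, 519.1 and 875.1 CPM in Egr1-/- mice. The genotypes were separated, with a log2 fold change of 0.72 (SE 0.197) and an edgeR adjusted p of 0.249. Suclg1 (chromosome 6, 73248382 to 73276911) was even among Egr1+/+ mice, from 138.3 to 143.7 CPM, and ran from 171.3 to 275.6 CPM in Egr1-/- mice. The log2 fold change came to 0.61 (SE 0.173). Suclg2 differed from its partners, with 52.54, 40.95 and 50.25 CPM in Egr1+/+ mice and 43.46, 48.32 and 63.72 CPM in Egr1-/- mice. The ranges overlapped, the log2 fold change was 0.11 (SE 0.164), and with total-count scaling its sign turned (-0.02).

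Fh1 encodes fumarase, which hydrates fumarate to malate, and Mdh2 the mitochondrial malate dehydrogenase, which closes the cycle. Mdh2 (chromosome 5, 135778480 to 135790398) had 78.44, 60.83 and 59.04 CPM in Egr1+/+ mice and 100.1, 85.42 and 123.4 CPM in Egr1-/- mice. The genotypes did not overlap, and the log2 fold change was 0.64 (SE 0.168, edgeR adjusted p = 0.233). Fh1 ran from 98.19 to 114.9 CPM and from 120.4 to 165 CPM, also without overlap, with a log2 fold change of 0.37 (SE 0.145). Over the 13 tested mitochondrial cycle enzymes the median log2 fold change was 0.57.

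The cytosolic counterparts were nearer to zero. Mdh1, part of the malate shuttle, had a log2 fold change of 0.28 (SE 0.147), with 143.4, 145.1 and 135.7 CPM in Egr1+/+ mice and 168.4, 142.4 and 205.3 CPM in Egr1-/- mice. Aco1, which acts as aconitase or as an iron-responsive RNA-binding protein, had a log2 fold change of 0.17 (SE 0.117), with 115.2, 104.4 and 104.5 CPM and 122.2, 111 and 131.6 CPM. Idh1, a cytosolic source of NADPH, had 391.1, 251.5 and 311.9 CPM in Egr1+/+ mice and 271.7, 301.5 and 357.9 CPM in Egr1-/- mice. Its log2 fold change was -0.04 (SE 0.182) and turned positive without mouse 1 of either genotype, and all 3 genes overlapped between genotypes.

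**Figure D2:**
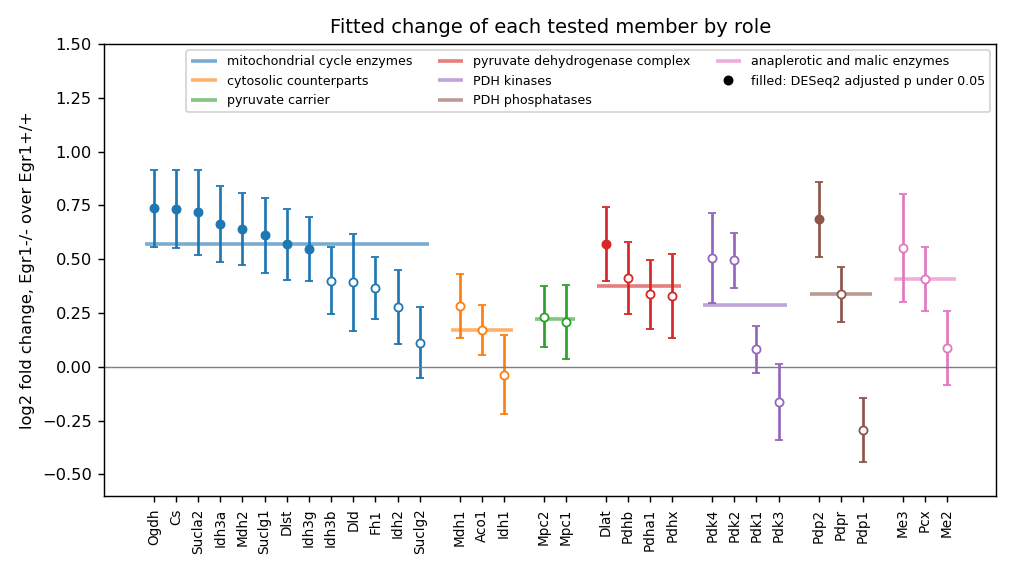
Log2 fold change of each tested member, Egr1-/- over Egr1+/+, from edgeR, with its standard error as bars and the median of each role as a horizontal line. The line at 0 marks no difference, and filled points are members with a DESeq2 adjusted p under 0.05. The median is 0.57 for the mitochondrial cycle enzymes, 0.37 for the PDH complex and 0.29 for the PDH kinases.

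At the entry of pyruvate, differences were smaller. Mpc1 had 97.86, 75.14 and 88.8 CPM in Egr1+/+ mice and 113.2, 76.73 and 112.7 CPM in Egr1-/- mice. Mpc2 had 108.3, 86.03 and 85.6 CPM and 115.9, 94.62 and 118.4 CPM. Both carrier subunits overlapped between genotypes, with log2 fold changes of 0.21 (SE 0.173) and 0.23 (SE 0.143).

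Of the PDH complex, Dlat, the acetyltransferase core, was the member with separated genotypes. It had 124, 103.4 and 101.7 CPM in Egr1+/+ mice and 165.6, 126.6 and 196.3 CPM in Egr1-/- mice, with a log2 fold change of 0.57 (SE 0.171) and an edgeR adjusted p of 0.285. Egr1-/- mouse 2 cleared the highest Egr1+/+ mouse by a small margin. Pdhb, the beta subunit of the first component, had 109.8, 86.46 and 89.52 CPM in Egr1+/+ mice and 122.9, 103.8 and 153.8 CPM in Egr1-/- mice. The fitted log2 difference was 0.41 (SE 0.166). Pdha1, the alpha subunit that carries the regulatory phosphorylation sites, had 388, 328.2 and 358.2 CPM and 440.9, 375.4 and 540.7 CPM, with a log2 fold change of 0.34 (SE 0.159). Pdhx, which anchors the shared dehydrogenase to the core, ran from 35.02 to 39.7 CPM and from 33.6 to 61.1 CPM, with a log2 fold change of 0.33 (SE 0.194). The last 3 overlapped between genotypes, and in all 4 subunits Egr1-/- mouse 3 was highest and Egr1-/- mouse 2 the lowest of its genotype.

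Of the PDH kinases, Pdk4 and Pdk2 were higher in every Egr1-/- mouse, and Pdk1 and Pdk3 were not. Pdk4, the isoform linked to fasting and fatty acid use, had 226.2, 357.9 and 377.9 CPM in Egr1+/+ mice and 454, 386.1 and 525.8 CPM in Egr1-/- mice. Its log2 fold change was 0.51 (SE 0.208, edgeR adjusted p = 0.432), and Egr1+/+ mouse 1 stood apart as the lowest. Without that mouse the log2 fold change of Pdk4 was 0.29. Pdk2, a broadly expressed isoform, was tighter, with 27.48, 24.87 and 26.75 CPM in Egr1+/+ mice and 34.01, 34.06 and 43.45 CPM in Egr1-/- mice. The log2 fold change came to 0.49 (SE 0.128, edgeR adjusted p = 0.227). Both were separated by genotype. Pdk1, an isoform known to be induced in low oxygen, had 37.63, 41.18 and 36.98 CPM in Egr1+/+ mice and 37.07, 42.51 and 42.9 CPM in Egr1-/- mice. Pdk3 was the lowest kinase, with 7.073, 7.258 and 8.026 CPM and 5.283, 7.747 and 6.951 CPM. The log2 fold changes were 0.08 (SE 0.111) for Pdk1 and -0.16 (SE 0.177) for Pdk3, and the genotypes overlapped in both. With total-count scaling the sign of Pdk1 turned (-0.05). The median of the 4 kinases was 0.29, and without Egr1+/+ mouse 1 it was 0.17.

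The phosphatase genes differed from each other in direction. Pdp2, a catalytic subunit, had 12.89, 11.05 and 12.13 CPM in Egr1+/+ mice and 17.35, 15.91 and 24.8 CPM in Egr1-/- mice. The genotypes were separated, with a log2 fold change of 0.69 (SE 0.174) and an edgeR adjusted p of 0.227. Pdp1, the calcium-stimulated catalytic subunit, had 10.27, 13.18 and 11.85 CPM in Egr1+/+ mice and 9.425, 8.651 and 10.7 CPM in Egr1-/- mice. The log2 fold change of Pdp1 was -0.30 (SE 0.148), with a narrow overlap of the genotypes. Pdpr, the regulatory subunit, had 35.89, 40.42 and 40.83 CPM and 44.39, 46.32 and 57.22 CPM, without overlap and with a log2 fold change of 0.34 (SE 0.129).

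**Figure D3:**
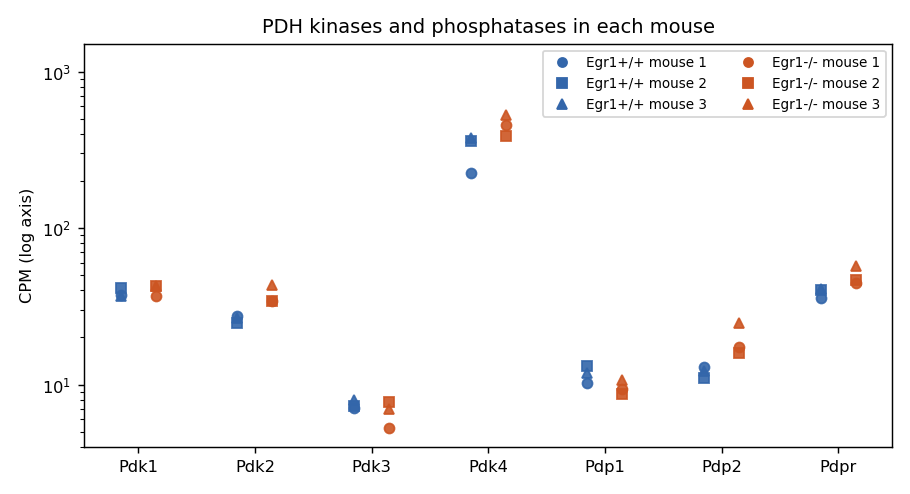
CPM of the PDH kinases and phosphatases in each mouse on a log axis, with Egr1+/+ mice in blue and Egr1-/- mice in orange. Pdk4 lies between 226.2 and 525.8 CPM in every mouse, above all other genes shown, while Pdk3 and Pdp1 stay under 14 CPM.

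The anaplerotic enzymes refill the cycle or take malate from it. Pcx, pyruvate carboxylase, had 90.29, 79.17 and 68.8 CPM in Egr1+/+ mice and 112, 88.84 and 115.3 CPM in Egr1-/- mice. Egr1-/- mouse 2 lay just under the highest Egr1+/+ mouse, and the log2 fold change was 0.41 (SE 0.148, edgeR adjusted p = 0.365). Me3, a mitochondrial malic enzyme, was low, with 5.035, 4.827 and 3.224 CPM and 5.523, 5.197 and 8.438 CPM. The genotypes of Me3 were separated by a small margin, with a log2 fold change of 0.55 (SE 0.25). Me2, the NAD-dependent malic enzyme, ran from 11.09 to 12.66 CPM and from 9.455 to 14.14 CPM, with a log2 fold change of 0.09 (SE 0.171) that turned to -0.03 with total-count scaling.

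Divided by the exonic length of the gene, levels can be compared between members, but only roughly. This length joins all annotated exons of a gene, such as 2082 bases for Mpc1 and 7344 for Mpc2, and not those of the transcripts present. The ranks and shares per kilobase below depend on it. In Egr1+/+ mice, Idh1 was highest with a mean of 114.8 CPM per kilobase, followed by Sucla2 with 101.2, Pdha1 with 95.91 and Pdk4 with 91.34 CPM per kilobase. The ranges of these 4 over the Egr1+/+ mice overlapped one another, from 64.44 for the lowest Pdk4 value to 141.2 CPM per kilobase for the highest Idh1 value. In Egr1-/- mice, Sucla2 had the highest mean, 166.5 CPM per kilobase, followed by Pdk4 with 129.7, Pdha1 with 121.1 and Idh1 with 112. The range of Sucla2 there, 130.2 to 219.4 CPM per kilobase, lay above that of Idh1, 98.04 to 129.1, and overlapped those of Pdk4 and Pdha1. At the other end, Me3 had 0.298 and Ogdhl 0.044 CPM per kilobase in Egr1+/+ mice.

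Among the kinases, Pdk4 held 84.36% ± 3.93 (SD, n = 3) of the summed CPM per kilobase in Egr1+/+ mice and 86.78% ± 1.51 (SD, n = 3) in Egr1-/- mice. Between the beta subunits of succinyl-CoA ligase, the share of Sucla2 was 90.69%, 91.66% and 89.79% in Egr1+/+ mice against 94.09%, 92.57% and 94.09% in Egr1-/- mice. Between the catalytic phosphatase subunits, the share of Pdp2 was 49.84%, 39.9% and 44.77% in Egr1+/+ mice against 59.31%, 59.29% and 64.73% in Egr1-/- mice. The beta subunits and the phosphatases were thus separated by genotype in every mouse, and the kinase shares of Pdk4 overlapped.

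The ratio of 2 genes within a library does not depend on how libraries are scaled to each other, and 10 ratios of paired enzymes were compared with an exact two-sided permutation test. With 3 mice against 3 the smallest p this test can give is 0.1, so no ratio could pass 0.05. In 6 of the 10 ratios the genotypes did not overlap, each with p = 0.1, the floor, and an adjusted p of 0.167 in the exact test. Of all single genes, 16.3% showed no overlap in either direction, but the share among ratios of other gene pairs was not computed. Each of the 6 ratios joins a gene separated by genotype on its own with a gene that overlapped. The count of 6 is therefore not independent of the single genes. Pdp1/Pdp2 was 0.797, 1.19 and 0.977 in Egr1+/+ mice against 0.544, 0.544 and 0.432 in Egr1-/- mice, a difference of -0.95 in log2. Sucla2/Suclg2 was 8.40, 9.47 and 7.59 in Egr1+/+ mice against 13.7, 10.7 and 13.7 in Egr1-/- mice, a difference of 0.58. Without the muscle-rich mouse of each genotype, the difference was -0.70 for Pdp1/Pdp2. Mdh2/Mdh1, mitochondrial over cytosolic malate dehydrogenase, was 0.547, 0.419 and 0.435 in Egr1+/+ mice and lay between 0.595 and 0.601 in Egr1-/- mice, a difference of 0.37. Idh3a/Idh2 was 2.13, 1.76 and 1.47 in Egr1+/+ mice against 2.29 to 2.33 in Egr1-/- mice, a difference of 0.39. In these last 2 ratios the Egr1-/- mice, which differed widely in level, were nearly equal, with SDs of 0.008 and 0.011 in log2.

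Pdk1/Pdk2 was 1.37, 1.66 and 1.38 in Egr1+/+ mice against 1.09, 1.25 and 0.987 in Egr1-/- mice, a difference of -0.41 in log2. Without the muscle-rich mouse of each genotype that difference was -0.24. Ogdh/Ogdhl also separated the genotypes, with a difference of 0.86, but it rests on the 3 to 7 counts of Ogdhl per mouse. Idh2/Idh1, Pdk4/Pdk2, Mpc1/Mpc2 and Pcx/Pdha1 overlapped between genotypes, with differences of 0.29, 0.04, -0.04 and 0.08 and p from 0.4 to 1 in the exact permutation test.

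**Figure D4:**
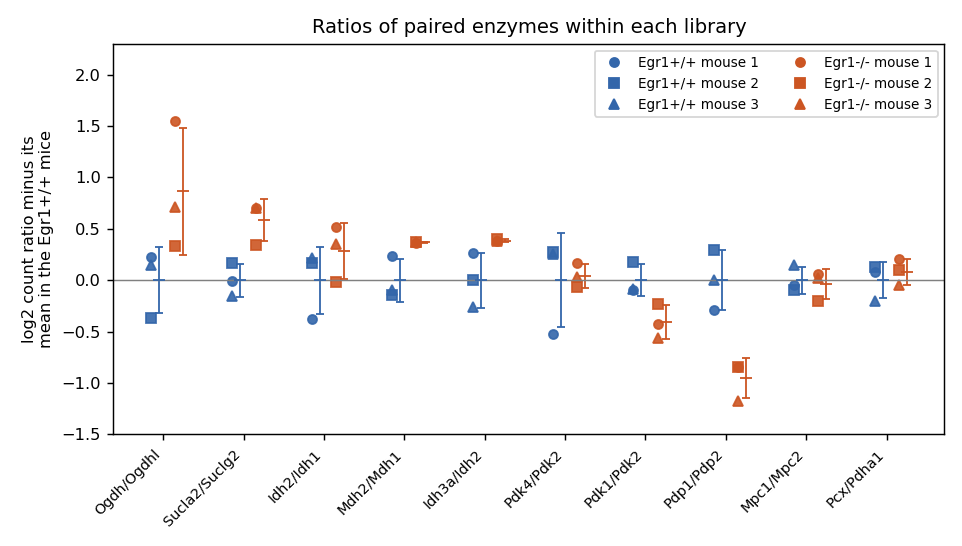
Count ratio of 10 pairs of enzymes in each library on the log2 scale, minus the mean of the Egr1+/+ mice, with bars at the mean ± SD of each genotype (n = 3). Pdp1/Pdp2 lies lowest in Egr1-/- mice, by 0.95, and the 3 Egr1-/- mice nearly coincide for Mdh2/Mdh1 and Idh3a/Idh2.

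The SD among Egr1-/- mice was the larger one in 27 of the 32 tested members on the log2 CPM scale and in 29 on the CPM scale, against 51.5% and 50.6% of all tested genes. Egr1-/- mouse 3 was the highest of its genotype for 29 members (31.8% of all tested genes) and Egr1-/- mouse 2 the lowest for 25 (36.4%). Relative to the mean of the Egr1+/+ mice, the median of the 13 mitochondrial cycle enzymes was 0.49, 0.28 and 0.86 on the log2 scale in Egr1-/- mice 1 to 3, and 0.13, -0.07 and -0.07 in the Egr1+/+ mice. In Egr1-/- mouse 2, 18 of the 32 members exceeded the highest Egr1+/+ mouse, compared with 25 in mouse 1 and 29 in mouse 3. Of all tested genes, 29.1% did so in mouse 2, 24.9% in mouse 1 and 28.5% in mouse 3. Without Egr1-/- mouse 3, the median log2 fold change of all members was 0.23 and that of the mitochondrial cycle enzymes 0.40. The same fit gave medians of 0.22 for the PDH complex, 0.22 for the phosphatases and 0.11 for the cytosolic enzymes, and a log2 fold change of 0.11 for Pdhx. In that fit 11 of the 32 members had an unadjusted p under 0.05 in edgeR, against 6.38% of all genes.

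Markers of other cell types were set beside these values. The markers of brown or beige adipocytes, 8 of 10 high enough to test, summed to 707.3, 570.2 and 555.1 CPM in Egr1+/+ mice and 1363, 968.4 and 1614 CPM in Egr1-/- mice. Their order within Egr1-/- mice was the same as that of the summed mitochondrial cycle enzymes, 3260, 2781 and 4290 CPM. Within Egr1+/+ mice the order differed, with 2534, 2151 and 2167 CPM for the cycle enzymes. The part of the brown or beige markers in the difference was not tested. All 8 tested markers had a positive log2 fold change and an unadjusted p under 0.05 in edgeR, with 0 past its adjusted threshold. In DESeq2, 7 of the 8 passed as higher at an adjusted p under 0.05, against 1.02% of all genes it tested. Among the 8 were Ucp1 (1.22), Cidea (0.97) and Dio2 (1.91), which were named after their values had been seen. The other 2, Elovl3 and Zic1, had at most 27 and 14 counts in any mouse. Skeletal muscle is rich in the same enzymes, and all 14 of its markers were detected. They summed to 1241, 3783 and 252.4 CPM in Egr1+/+ mice and 140.9, 425.5 and 3046 CPM in Egr1-/- mice. The 10 markers with a negative log2 fold change were highest in Egr1+/+ mouse 2. The 4 with a positive one, Myh1, Myh2, Mb and Des, were highest in Egr1-/- mouse 3. Myh1 had 299.4 CPM in that mouse and 26.87 CPM in Egr1+/+ mouse 2, and Myh2 had 63.27 and 4.461 CPM. The muscle in these 2 mice was thus not alike in every marker. Egr1-/- mouse 1 had the lowest muscle sum. In that mouse 11 of the 13 cycle enzymes lay above the highest Egr1+/+ mouse, against 24.9% of all tested genes. The part of muscle in these values was not tested. With the summed muscle markers as a covariate, the median of the cycle enzymes was 0.61 and 18 of the 32 members had an unadjusted p under 0.05 in edgeR, against 10.2% of all genes. Without the muscle-rich mouse of each genotype, the median of the cycle enzymes was 0.38, that of the PDH complex 0.16, of the carrier 0.07 and of the cytosolic enzymes 0.09, and 9 of the 32 members had such a p, against 8.66% of all genes.

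The stromal markers were lower in Egr1-/- mice, with 1696 to 1795 CPM in Egr1+/+ and 965.9 to 1338 CPM in Egr1-/- mice, where 10 of the 10 had a negative log2 fold change. The 7 macrophage markers summed to 329.7 to 450.7 CPM and to 254.1 to 304.5 CPM. The sums of the lymphocyte markers (408.4 to 449.5 and 317.9 to 679.8 CPM; 9 of 9 with a positive log2 fold change), endothelial markers (382.4 to 493.7 and 348.9 to 520.6 CPM) and mammary epithelial markers (3.67 to 15.9 and 8.34 to 11.8 CPM) overlapped. The markers of nerve and Schwann cells ran from 207.5 to 327.7 CPM and from 148.4 to 200.3 CPM. The part of these cell types in the members' values was not tested.

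**Figure D5:**
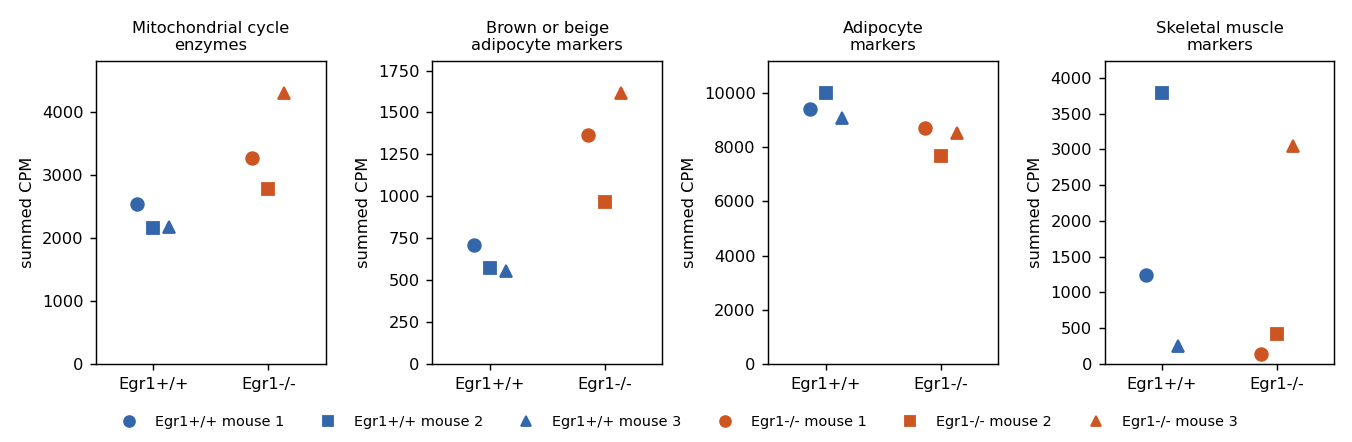
Summed CPM of the 14 mitochondrial cycle enzymes and of the markers of brown or beige adipocytes, all adipocytes and skeletal muscle in each mouse, with axes starting at 0. The cycle enzymes and the brown or beige markers separate the genotypes and share their order within Egr1-/- mice. The muscle sum is high in 1 mouse of each genotype, but single muscle markers, not shown, differ between these mice.

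Among 40 related genes of the same routes, 30 had a positive and 10 a negative log2 fold change, with a median of 0.17. Of all tested genes, 50.1% had a positive one. In edgeR 0 of the 40 passed the adjusted threshold, against 0.0170% of all tested genes. At an unadjusted p under 0.05 in edgeR, 6 were higher and 2 lower, against 5.06% and 5.60% of all tested genes. The count of lower genes is near that share. Ldhb, the lactate dehydrogenase subunit of oxidative tissues, had 20.84, 19.34 and 15.75 CPM in Egr1+/+ mice and 29.54, 27.47 and 43.35 CPM in Egr1-/- mice. Its log2 fold change was 0.84 (SE 0.189, edgeR adjusted p = 0.193). Slc25a11, the oxoglutarate carrier, had 26.57, 27.3 and 25.82 CPM and 36.41, 31.12 and 40.7 CPM, a log2 fold change of 0.44 (SE 0.123). In both genes the genotypes did not overlap, and Ldhb passed in DESeq2. The genes lower at an unadjusted p under 0.05 were Me1, the cytosolic malic enzyme, with a log2 fold change of -0.31, and the dicarboxylate carrier Slc25a10, with -0.43. Both were named after their values had been seen. By group, 7 of 8 lipoylation genes and 8 of 10 genes of citrate, malate and pyruvate routes had a positive log2 fold change. The same held for 2 of 5 carriers and 4 of 7 transaminase and glutamate genes. It also held for 9 of 10 genes in a group of succinate dehydrogenase, its helpers, Mrps36 and Nnt, with a median of 0.15. The last 2 of these are not parts or helpers of that enzyme.

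Of 12 regulators known to act on such genes, 11 were tested, and 0 passed the adjusted threshold in edgeR. Ppargc1a, a coactivator of mitochondrial genes, had 32.13, 19.88 and 36.42 CPM in Egr1+/+ mice and 58.65, 48.39 and 79.69 CPM in Egr1-/- mice. Its order was that of the summed cycle enzymes within Egr1-/- mice but not within Egr1+/+ mice, where they summed to 2534, 2151 and 2167 CPM. Ppargc1a is also 1 of the brown or beige markers summed above. Its log2 fold change was 1.08 (SE 0.244, edgeR adjusted p = 0.193). Esrra, which encodes an estrogen-related receptor that binds many of the members' genes, had 16.77, 13.55 and 16.38 CPM and 19.06, 17.72 and 23.31 CPM, without overlap. The fitted log2 difference was 0.36 (SE 0.144, edgeR adjusted p = 0.411). The regulators that passed in DESeq2 were Ppargc1a, Ppargc1b and Ppara, the last 2 named after their values had been seen. Of the 11, 8 had a positive log2 fold change, against 50.1% of all tested genes. At an unadjusted p under 0.05 in edgeR, 6 were higher and 0 lower, against 5.06% and 5.60% of all tested genes. The 3 with a negative log2 fold change were Nrf1, Tfam and Hif1a, with -0.03, -0.04 and -0.07, also named after their values had been seen.

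RefSeq promoters, 250 bases before to 50 after the start, were found for 30 of the 33 members on GRCm38.p6 and searched on both strands for the letters of binding motifs. The EGR1 motif, GCGTGGGCG or GCGGGGGCG, was present in 1 of 30 members and in 3.93% of all 27025 genes. The NRF1 motif, TGCGCATGC, was present in 1 of 30 members and in 1.72% of all genes. The estrogen-related receptor motif, TCAAGGTCA, was present in 0 of 30 members and in 0.466% of all genes. The matches lay in 1 promoter of Suclg1 and in 2 of Ogdh, whose windows overlap and hold the same letters. Both genes had separated genotypes, and 1 promoter of each is printed with the matched letters in capitals, 5′ to 3′ on the plus strand. In Suclg1 (chr6:73248255-73248554) the match lies on the opposite strand, with its first base 194 bases before the RefSeq start, and in Ogdh (chr11:6292308-6292607) it begins 16 bases before it, or 37 before the other start (chr11:6292329-6292628, not printed). A match of letters describes the sequence and shows no binding.
Suclg1: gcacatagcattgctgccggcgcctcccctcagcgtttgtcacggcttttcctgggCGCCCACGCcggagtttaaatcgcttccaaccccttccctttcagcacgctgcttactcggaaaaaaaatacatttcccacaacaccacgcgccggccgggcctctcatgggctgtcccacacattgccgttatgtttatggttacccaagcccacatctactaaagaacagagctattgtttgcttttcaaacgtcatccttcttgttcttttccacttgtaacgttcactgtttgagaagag
Ogdh: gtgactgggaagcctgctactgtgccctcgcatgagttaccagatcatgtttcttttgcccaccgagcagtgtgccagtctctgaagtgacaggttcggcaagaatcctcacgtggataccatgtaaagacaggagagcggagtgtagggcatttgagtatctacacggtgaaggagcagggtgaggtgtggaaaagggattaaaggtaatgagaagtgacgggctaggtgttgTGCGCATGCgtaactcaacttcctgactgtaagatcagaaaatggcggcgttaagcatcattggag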

How the data were processed

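Ribosomal-depleted total RNA of 6 fat pads was sequenced with a strand-specific kit. The authors mapped reads to GRCm38/mm10 with TopHat and Bowtie, guided by GENCODE M8, counted them with featureCounts, and what they deposited are counts of reads for each gene that were not normalized. Strand and multimapping settings are not given in the sources used here. Groups come from the sample titles.

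Symbols, coordinates and exonic lengths were taken from GENCODE M21 of GRCm38, which named 46574 of 47069 identifiers. Counts were filtered with filterByExpr, normalized by TMM and tested with edgeR 4.0.16 in R 4.3.3, without covariates. A standard error is the absolute log2 fold change divided by the root of the F statistic. Ratios used counts plus 0.5. DESeq2 1.42.0, which the study used, and limma 3.58.1 (voom) served as alternatives, with other scalings, filters, a replicate block, a muscle covariate and each mouse left out. The scripts were tested on simulated data. The members, gene lists, motifs and tests were chosen with earlier results of these data known. Every member is named. Values per mouse are printed for the 6 cycle enzymes of lowest p and the 2 of lowest p in each other role. They are also printed for all kinases and for members of the ratios, except Ogdhl, which is given as a range. Outside the members, Egr1, Ppargc1a, Esrra and the related genes of lowest p are named, except 1 related gene that is not reported here and is left out of the related counts. Per the study, the mice came from several litters and a pair, 1 of each genotype, were littermates. The labels do not say which, so no litter term could be fitted.

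Near-identical transcripts of other genes (95% identity over at least 200 bases) were found for Mpc1, Pdhb and Suclg2, each a pseudogene with at most 0.583% of the member's counts. Exons of 6 members overlap a gene on the opposite strand.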

Additional observations from a re-analysis of the deposited data

How the results depend on the processing

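In every alternative run, 26 to 30 of the 32 tested members had a positive log2 fold change, and the medians of all roles kept their sign. The number of genes passing the adjusted threshold, 3 in edgeR with TMM, was 342 in DESeq2, 1 in limma-voom, 0 with upper-quartile factors, 79 with total counts, 552 without a filter on low counts, 0 with a mean CPM of at least 1, 6 with the muscle covariate and 0 with the replicate block. Leaving out each mouse in turn gave 0 to 59 genes, the latter without Egr1-/- mouse 1. Leaving out the muscle-rich mouse of each genotype, a choice made after seeing the data, gave 0. At an unadjusted p under 0.05, the fits with 0 genes held 1902 with upper-quartile factors, 1765 with the stricter filter, 1909 with the block and 1568 without the muscle-rich mice, and all fits with a mouse left out 1190 to 2366. Of the members, 0 passed in edgeR, and 10 passed both in DESeq2 and without the filter, the same 10 genes, where 1.44% of all genes passed without the filter. Total-count scaling moved the median of all genes to -0.15 and that of the PDH kinases from 0.29 to 0.15, left 6 members and 1570 of all genes with an unadjusted p under 0.05, and turned Suclg2 (-0.019), Pdk1 (-0.05) and Me2 (-0.029). Leaving out each mouse gave a kinase median of 0.17 to 0.33, lowest without Egr1+/+ mouse 1. With each mouse left out, Idh1 ran from -0.179 to 0.125 and was positive without Egr1+/+ mouse 1 (0.125) or Egr1-/- mouse 1 (0.053), Me2 ran from -0.004 (without Egr1-/- mouse 2) to 0.257, and Suclg2 from -0.061 (without Egr1-/- mouse 3) to 0.227. Without both muscle-rich mice, Suclg2 was at -0.164 and Me2 at -0.039. The cause of these changes was not tested. In the fit blocked on replicate number, all members had a median of 0.39 and 15 had an unadjusted p under 0.05 in edgeR. Same-numbered mice deviated from their genotype means with correlations of -0.0888, 0.106 and -0.126, so the numbers were not taken as pairs.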
